A study of Homo sapiens with 12 samples.

Results

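Neurofilament light, medium and heavy chains and alpha-internexin are encoded by NEFL, NEFM, NEFH and INA. These 4 genes, of 27011 in the count tables, were chosen by name, with their counts read across 3 genotypes in RNA-seq and ribosome profiling (Ribo-seq). Their choice rested on values of the same data, because NEFM and NEFL were already known to be lower in mRNA of the 4EHP-null cells. The mRNA values of all 4 genes in 4EHP-null against WT are therefore a description and carry no test here. The same holds for any comparison that contains the 4EHP-null mRNA libraries.

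The study set 4EHP-null cells and GIGYF1/2-null cells against WT cells, all of the HEK293T line. HEK293T is an established human line from embryonic kidney that carries the SV40 large T antigen. Each genotype had 2 RNA-seq and 2 Ribo-seq libraries, 12 in all. Cells had been on 15 cm dishes for 24 h. Neither the number of clones behind each null line nor whether replicates were separate cultures is given in the labels, so that p-values capture spread among these libraries alone, which may be technical. A property of a clone and an effect of its deletion cannot be told apart, and in bulk samples fewer cells of a type and less RNA per cell cannot be told apart either.

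Neurofilaments are class IV intermediate filaments of neurons. The light chain forms the core of the filament together with alpha-internexin, while the medium and heavy chains carry long phosphorylated tails that project from it and help to set the calibre of large axons. In developing neurons alpha-internexin and the light and medium chains appear early and the heavy chain late, and HEK293 cells are known to express neurofilament subunits despite their kidney source. 4EHP, the product of EIF4E2, is a cap-binding protein that represses translation of bound mRNAs. GIGYF1 and GIGYF2 are scaffold proteins that bind 4EHP and link it to other repressors.

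RNA-seq libraries held 26143118 to 38175701 counted reads and Ribo-seq libraries held 6536493 to 10816080. EIF4E2 mRNA averaged 48.8 ± 3.02 CPM (counts scaled to library size) in 4EHP-null cells and 123 ± 0.0735 in WT cells (SD, n = 2 each), a log2 fold change of -1.33 ± 0.08 (SE; edgeR quasi-likelihood test, adjusted p = 5.92e-07). GIGYF1 mRNA averaged 24.2 ± 2.55 CPM in cells labelled GIGYF1/2-null and 41.0 ± 0.292 in WT cells (log2 fold change -0.76 ± 0.11, adjusted p = 0.000691). GIGYF1 footprints averaged 2.22 ± 0.738 CPM in cells with that label and 7.7 ± 1.4 in WT cells (log2 fold change -1.73 ± 0.29, same test, adjusted p = 0.012). GIGYF2 did not pass the test in those cells, with log2 fold changes of 0.28 ± 0.11 in mRNA (adjusted p = 0.124) and -0.21 ± 0.22 in footprints (adjusted p = 0.671). Its counts therefore do not show the loss that the label states, and protein was not measured. Of 12 kidney lineage markers 5 were tested in 4EHP-null against WT mRNA. Of these 4 were not called and 1 was called lower (adjusted p under 0.05), where 6.63% of all genes tested were called lower. The gene called was EYA1 (log2 fold change -3.36 ± 0.19, adjusted p = 2.34e-07). UMOD and AQP2 had no read in any RNA-seq library. The leukocyte genes PTPRC, MS4A1 and TYROBP and the catecholamine genes TH and SLC18A1 had no read in any RNA-seq library either.

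All 4 genes passed the low-count filter of edgeR for mRNA, and NEFL, NEFM and INA passed it for footprints. NEFH mRNA passed through its WT and GIGYF1/2-null libraries, as its 10 and 7 reads in the 4EHP-null libraries lay below the cutoff. Levels were set side by side as CPM divided by gene model length in kilobases (RPKM), with gene model lengths of 3840 bases for NEFL, 3627 for NEFM, 3719 for NEFH and 3231 for INA. Per length, NEFM mRNA led in GIGYF1/2-null cells with 72.0 ± 15.0 RPKM and in WT cells with 53.2 ± 7.24 RPKM, while in 4EHP-null cells it stood at 13.1 ± 1.19 RPKM (SD, n = 2 each). INA mRNA had 14.7 ± 2.57 RPKM in 4EHP-null cells, 21.1 ± 4.38 in GIGYF1/2-null cells and 21.6 ± 2.91 in WT cells. The levels of INA and NEFM in 4EHP-null cells lay within their SDs of each other, as did those of INA and NEFL in WT cells. NEFH mRNA was by far the scarcest, with 0.0769 ± 0.0074 RPKM in 4EHP-null cells, 0.402 ± 0.0457 in GIGYF1/2-null cells and 0.294 ± 0.0479 in WT cells.

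**Figure D1:**
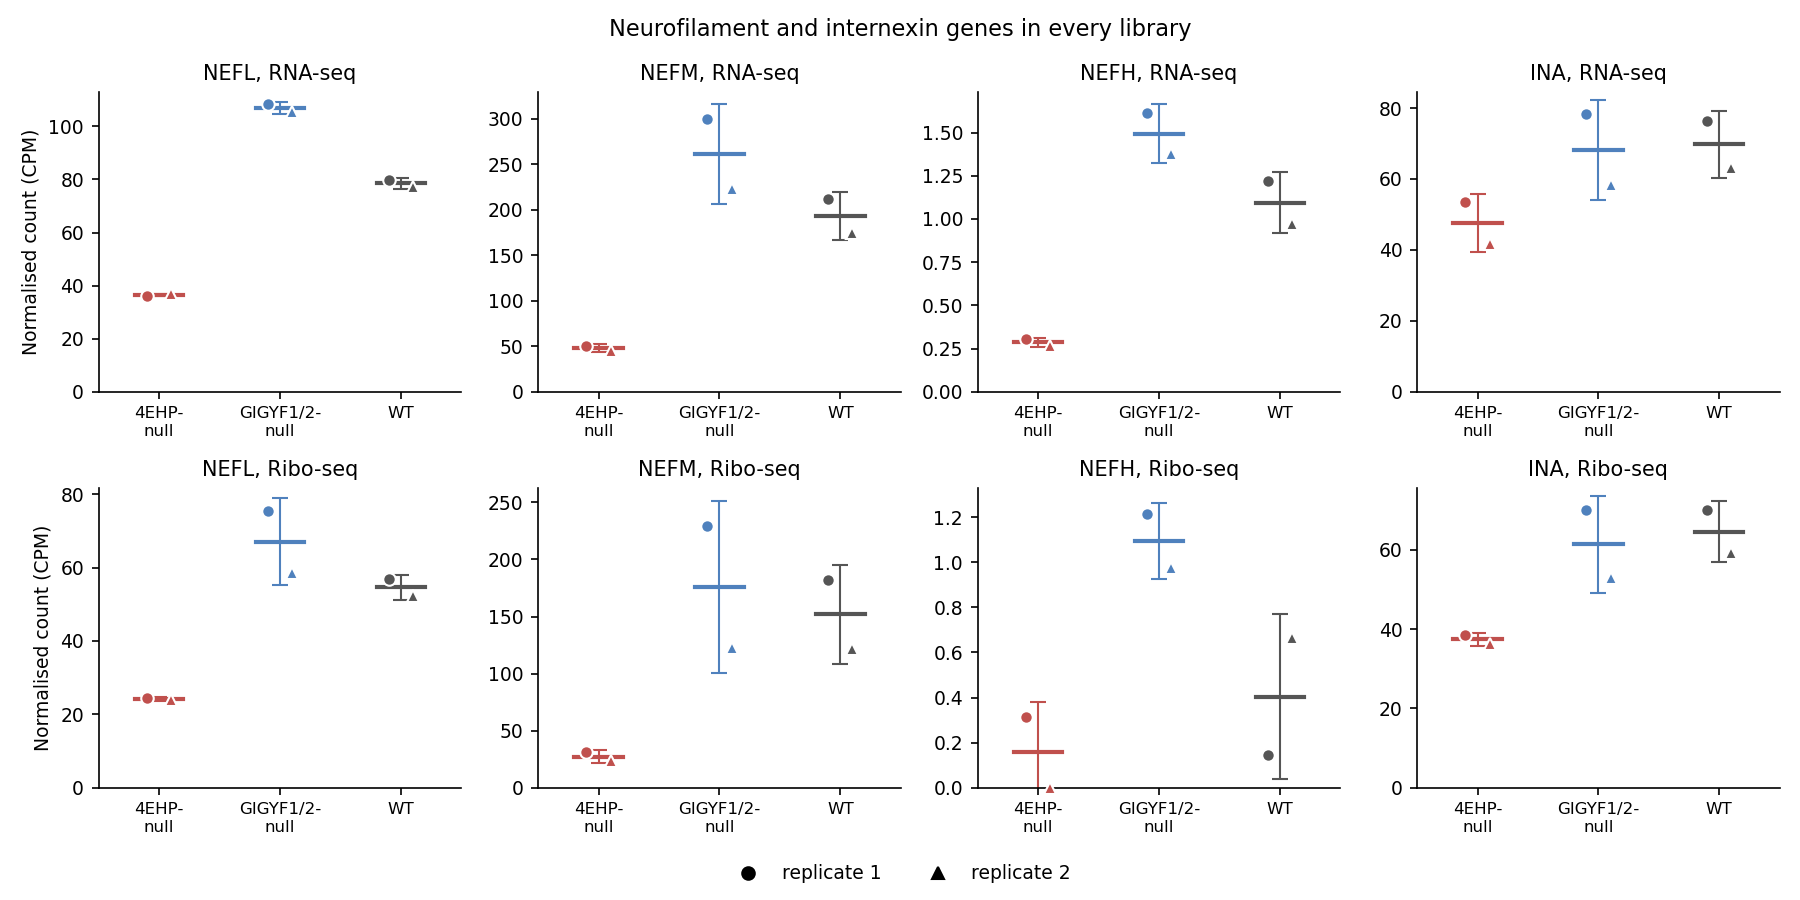
Normalised counts (CPM, vertical axes from 0) of NEFL, NEFM, NEFH and INA in each RNA-seq and Ribo-seq library, with 4EHP-null left, GIGYF1/2-null in the middle and WT right, and replicates 1 and 2 as circles and triangles, the mean as a horizontal line and the SD as error bars. In RNA-seq both 4EHP-null libraries lie below every other library for each gene, and NEFM spans 44.6 to 299.7 CPM. The share of all genes tested that separate in this way is not given, so nothing is read from it.

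The medium chain gene NEFM, the most abundant of the 4 in WT cells, was much lower in the 4EHP-null line. Its mRNA had 50.7 and 44.6 CPM in the 4EHP-null libraries, against 212 and 174 CPM in the WT libraries. Both 4EHP-null libraries lay below both WT libraries, a separation whose share among all genes tested is not given here. The description gives a log2 fold change of -2.02 ± 0.14 (SE), or 24.7% of the WT level, and 121 of 15637 genes tested had a lower value.

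The light chain gene NEFL, whose product can assemble with either larger chain, had 36.1 and 36.8 CPM in the 4EHP-null RNA-seq libraries, against 79.9 and 77.0 CPM in WT. The 2 libraries of each genotype were close and the genotypes did not overlap. The log2 fold change was -1.11 ± 0.08, or 46.5% of the WT level. The heavy chain gene NEFH had only 10 and 7 reads in the 4EHP-null libraries, against 36 and 36 in WT. In CPM these are 0.306 and 0.267 in 4EHP-null cells, against 1.22 and 0.968 in WT cells, a log2 fold change of -1.90 ± 0.42 that cannot be ranked against that of NEFM. INA differed least, with 53.5 and 41.7 CPM in the 4EHP-null libraries, against 76.4 and 63.1 CPM in WT. Its groups did not overlap, but the spread within each was wide beside the gap, and the log2 fold change was -0.55 ± 0.15. All 4 mRNAs were thus lower in both 4EHP-null libraries than in either WT library. The share of all genes tested that separate in this way is not given here, so nothing further is read from it. In this contrast 13.1% of the genes tested were called in either direction, a share from which nothing is read for genes chosen on it.

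Ribosome footprints of the same genes came from separate libraries and were tested, although the mRNA result was known when the genes were chosen, so they are no independent support. NEFM had 31.3 and 23.4 CPM of footprints in 4EHP-null cells, against 182 and 121 CPM in WT cells. NEFM footprints fell by 2.47 ± 0.29 on the log2 scale in 4EHP-null cells (SE; edgeR quasi-likelihood test, adjusted p = 0.00115), and 31 of 14722 genes tested had a lower value. NEFL had 24.6 and 23.8 CPM of footprints in 4EHP-null cells, against 56.9 and 52.2 CPM in WT cells. NEFL footprints fell by 1.17 ± 0.16 on the log2 scale (adjusted p = 0.00319). INA had 38.6 and 36.2 CPM of footprints in 4EHP-null cells, against 70.0 and 59.1 CPM in WT cells, with a log2 fold change of -0.78 ± 0.17 (adjusted p = 0.0285). For each of these genes both 4EHP-null libraries lay below both WT libraries, a separation whose share among all genes tested is not given here. The 3 genes tested were called lower, where 1.46% of all genes tested in Ribo-seq were called lower. The INA call was lost when any 1 of the 4 libraries compared was left out, with adjusted p of 0.0767 to 0.227, while the calls of NEFL and NEFM held without any single library.

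NEFH footprints were too few to test. Its counts were 2 and 0 in 4EHP-null cells, 10 and 11 in GIGYF1/2-null cells, and 1 and 7 in WT cells. A count of 0 in the second 4EHP-null library allows up to 0.409 CPM (3 counts), and the first WT library, at 0.145 CPM, lay below the first 4EHP-null library, at 0.315 CPM. A difference of NEFH footprints between 4EHP-null and WT cells was thus not detectable at this depth.

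**Figure D2:**
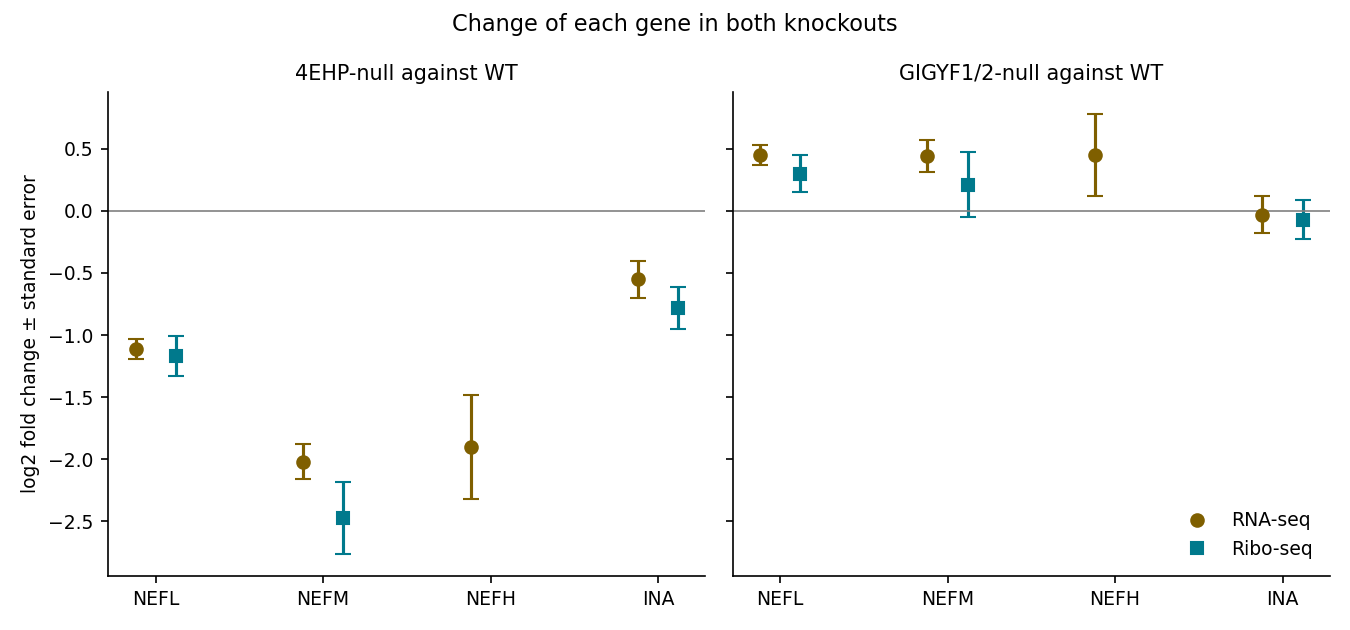
Log2 fold change of NEFL, NEFM, NEFH and INA against WT (vertical axis, with standard errors), in 4EHP-null cells (left) and GIGYF1/2-null cells (right), for RNA-seq (circles) and Ribo-seq (squares; NEFH has none). In 4EHP-null cells NEFM lies at -2.02 for mRNA and -2.47 for footprints, and the values in GIGYF1/2-null cells lie between -0.07 and 0.45.

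In cells labelled GIGYF1/2-null the light and medium chain mRNAs were higher than in WT. This contrast uses the same WT libraries as the one with 4EHP-null cells. NEFL mRNA had 109 and 105 CPM in GIGYF1/2-null cells, against 79.9 and 77.0 CPM in WT cells, and rose by 0.45 ± 0.08 on the log2 scale (edgeR quasi-likelihood test, adjusted p = 0.00267). NEFM mRNA had 299.7 and 223 CPM in GIGYF1/2-null cells, against 212 and 174 CPM in WT cells, with a log2 fold change of 0.44 ± 0.13 (adjusted p = 0.047). The NEFL libraries stood well apart, whereas the lower GIGYF1/2-null library of NEFM was only just above the higher WT library. The NEFM call was lost on leaving out either WT library, either 4EHP-null library or the first GIGYF1/2-null library (adjusted p of 0.0594 to 0.327), and its smallest value, without that GIGYF1/2-null library, was 0.20. NEFL kept its call under each of the 14 other settings tried.

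NEFH and INA mRNA did not pass the test in GIGYF1/2-null cells. NEFH had 51 and 47 reads, or 1.61 and 1.37 CPM, in GIGYF1/2-null cells, against 36 and 36 reads, or 1.22 and 0.968 CPM, in WT cells. Its log2 fold change of 0.45 had a 95% interval of -0.26 to 1.17 (adjusted p = 0.437), so at this depth neither a difference like that of NEFL nor a small fall can be told. INA had 78.2 and 58.2 CPM in GIGYF1/2-null cells, against 76.4 and 63.1 CPM in WT cells, and these ranges overlapped. Its log2 fold change of -0.03 had an interval of -0.35 to 0.28 (adjusted p = 0.923), which does not reach the size seen for NEFL or NEFM. Of the 4 genes 2 were called higher, against 5.20% of all genes tested.

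Footprints of the 3 genes tested did not pass the test in GIGYF1/2-null against WT cells. NEFL had 75.4 and 58.6 CPM of footprints in GIGYF1/2-null cells, against 56.9 and 52.2 CPM in WT cells (log2 fold change 0.30, interval -0.04 to 0.63, adjusted p = 0.341). NEFM had 229 and 123 CPM of footprints in GIGYF1/2-null cells, against 182 and 121 CPM in WT cells (log2 fold change 0.21, interval -0.36 to 0.79, adjusted p = 0.728). INA had 70.1 and 52.8 CPM of footprints in GIGYF1/2-null cells, against 70.0 and 59.1 CPM in WT cells (log2 fold change -0.07, interval -0.43 to 0.28, adjusted p = 0.864). Replicates of NEFM footprints differed more within a genotype than the genotypes did, and the intervals of NEFL and NEFM include the increase measured in mRNA. In this contrast 2.09% of all genes tested were called in either direction.

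The null lines were also set against each other. NEFM footprints were higher in GIGYF1/2-null than in 4EHP-null cells by 2.68 ± 0.29 on the log2 scale (adjusted p = 0.000389). NEFL footprints were higher by 1.47 ± 0.16 (adjusted p = 0.000406) and INA footprints by 0.71 ± 0.17 (adjusted p = 0.0201). The INA call was lost without either 4EHP-null library or without the first GIGYF1/2-null library, with adjusted p of 0.107 to 0.122. The 3 genes tested were called higher, where 3.98% of all genes tested were. The choice of genes rested on low mRNA in 4EHP-null cells, so these footprint calls are no independent support. As a description, the mRNA values of the same contrast were 2.45 ± 0.14 for NEFM, 2.36 ± 0.40 for NEFH, 1.55 ± 0.08 for NEFL and 0.52 ± 0.15 for INA.

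Translation efficiency was read as the ratio of footprint CPM to mRNA CPM and, between genotypes, as the log2 change of footprints less that of mRNA. Ratios of NEFL were 0.735 in 4EHP-null cells, 0.688 in GIGYF1/2-null cells and 0.758 in WT cells, near the medians of all 13257 genes tested, which were 0.772, 0.78 and 0.78 in that order of genotypes. NEFM had 0.637 in 4EHP-null cells, 0.74 in GIGYF1/2-null cells and 0.858 in WT cells. INA had the highest ratio of the 3 in each genotype, with 0.871 in 4EHP-null cells, 0.989 in GIGYF1/2-null cells and 1.01 in WT cells. The change in translation efficiency of 4EHP-null against WT cells was -0.04 for NEFL, with an interval of -0.41 to 0.32, and -0.21 for INA, with an interval of -0.74 to 0.32. For NEFM it was -0.43 with an interval of -1.22 to 0.35, the widest of the 3. In GIGYF1/2-null against WT cells the change was -0.14 for NEFL, -0.21 for NEFM and -0.03 for INA, with adjusted p = 1.0 for each. Their intervals were -0.48 to 0.20, -0.95 to 0.52 and -0.54 to 0.48 for NEFL, NEFM and INA. Across all genes 0.0981% were called in 4EHP-null and 0.0453% in GIGYF1/2-null cells against WT.

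Fold changes in the authors' deposited table of RNA-seq were -1.11 for NEFL, -2.02 for NEFM and -0.56 for INA in 4EHP-null against WT cells on the log2 scale. In the authors' deposited table of Ribo-seq they were -1.12 for NEFL, -2.42 for NEFM and -0.73 for INA. For GIGYF1/2-null against WT cells the authors' deposited table of RNA-seq gave NEFL 0.46 with a false discovery rate of 5.09e-06 and NEFM 0.45 with a rate of 0.0306. NEFH was not listed in the authors' deposited table of any of these comparisons.

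Because the 4 mRNAs differed by unequal amounts, their proportions differed between lines. As a share of their summed RPKM, NEFM made up 35.0% and 35.3% of the mRNA in 4EHP-null libraries, 61.0% and 57.3% in GIGYF1/2-null libraries, and 56.6% and 54.7% in WT libraries. INA made up 41.3% and 37.0% in 4EHP-null libraries, 17.9% and 16.8% in GIGYF1/2-null libraries, and 22.9% and 22.2% in WT libraries. INA thus took the largest share in both 4EHP-null libraries, and NEFM in each of the other RNA-seq libraries. NEFL kept a narrower range of 20.2% to 27.5% over the 6 RNA-seq libraries. The summed mRNA level of the 4 genes was 37.5 ± 3.64 RPKM in 4EHP-null cells, 121 ± 20.1 RPKM in GIGYF1/2-null cells and 95.5 ± 10.7 RPKM in WT cells (SD, n = 2 each).

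In footprints, too, INA held the largest share in both 4EHP-null libraries and NEFM in the others. NEFM held 31.9% and 27.0% of the footprint RPKM in 4EHP-null libraries, 60.3% and 51.5% in GIGYF1/2-null libraries, and 57.9% and 51.1% in WT libraries. INA held 44.1% and 47.0% in 4EHP-null libraries, 20.7% and 24.9% in GIGYF1/2-null libraries, and 25.0% and 27.9% in WT libraries. Footprints lie mostly in coding sequence while the lengths are of whole gene models, so these shares depend on how much of each model is coding. The ratio of NEFM to NEFL mRNA per length was 1.38 ± 0.145 in 4EHP-null cells, 2.58 ± 0.484 in GIGYF1/2-null cells and 2.60 ± 0.286 in WT cells. These proportions follow from the same mRNA values that chose the genes and are given as a description.

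**Figure D3:**
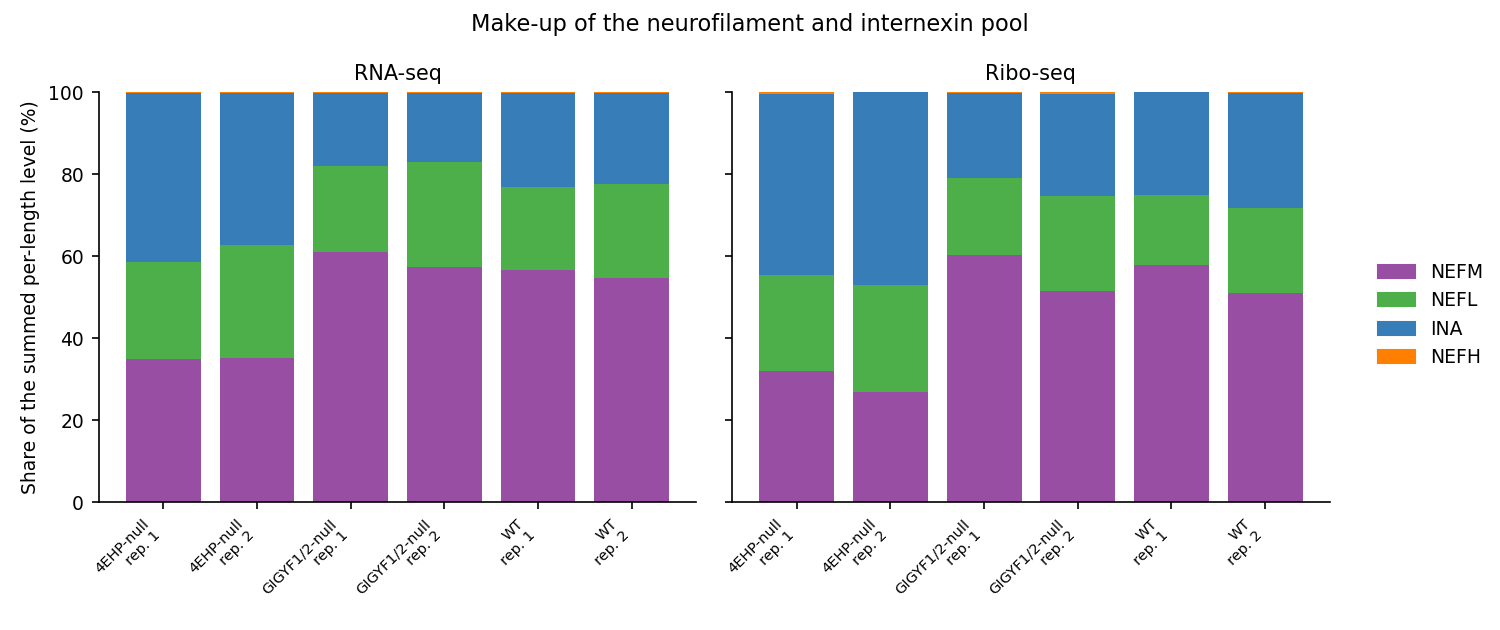
Share (%) of the summed RPKM of the 4 genes held by NEFM, NEFL, INA and NEFH in each library, RNA-seq left and Ribo-seq right, with 4EHP-null, GIGYF1/2-null and WT libraries in that order. INA is the largest block in the 4EHP-null libraries (37.0% to 47.0%) and NEFM in all others (51.1% to 61.0%).

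NEFM and NEFL are neighbours on chromosome 8, NEFH lies on chromosome 22 and INA on chromosome 10. Gene order was taken from RefSeq for GRCh38.p14, in which 25573 genes of the tables were found, and the 12 nearest tested genes on each side of each member were read. Around NEFM and NEFL the median log2 fold change of the 24 neighbours in 4EHP-null against WT mRNA was -0.01. DOCK5, a guanine nucleotide exchange factor and the nearest tested gene on one side, had 0.31 (adjusted p = 0.0945). The 24 neighbours of NEFH had a median of 0.06 and ranged from -0.33 to 0.48.

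The surroundings of INA differed from these. Of its 24 tested neighbours 11 were called lower in 4EHP-null mRNA, where 6.63% of all genes tested were called lower, and 20 had a value below 0. Their median log2 fold change was -0.39, beside -0.55 for INA itself and -0.003 for all genes tested. In Ribo-seq the median of 24 tested neighbours was -0.42, with 21 below 0 and 2 called lower. The nearest gene on one side, NT5C2, a nucleotidase, had -0.33 in mRNA (adjusted p = 0.0715), and on the other PCGF6, a Polycomb group protein, had -0.41 (adjusted p = 0.00738). In GIGYF1/2-null against WT mRNA the median of the 24 neighbours was -0.02. The cause of the shared lower values around INA was not tested.

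**Figure D4:**
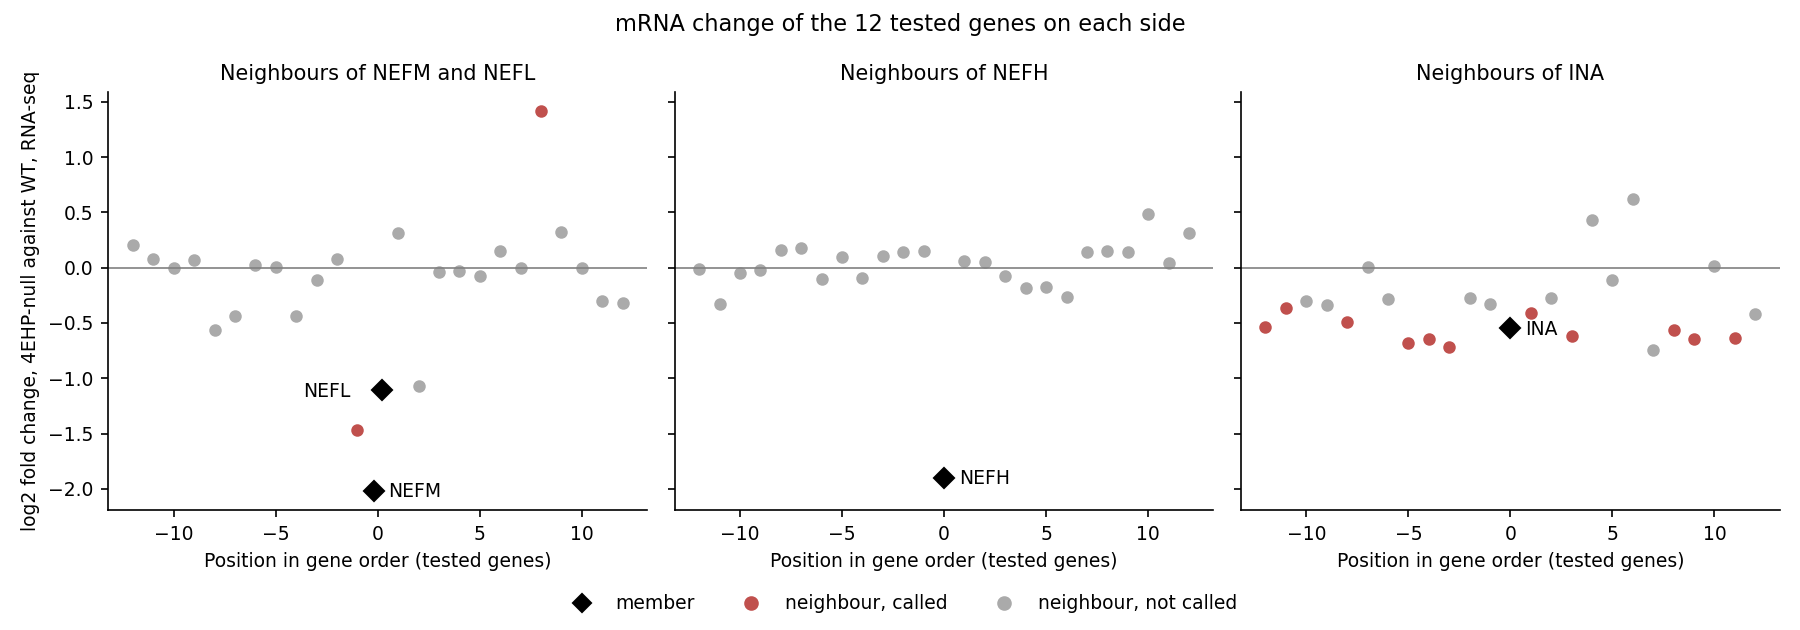
Log2 fold change of mRNA in 4EHP-null against WT cells (vertical axis) for the 12 tested genes on each side of NEFM and NEFL, NEFH and INA, in gene order (horizontal axis); black diamonds are the members, red points called neighbours and grey points the others. Around INA 20 of 24 neighbours lie below 0, and the medians are -0.01, 0.06 and -0.39 from the first panel to the last.

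The sequence before the start of INA is shown as context, and a link to the difference of INA or of its neighbours was not tested. It is the 250 bases before the annotated start, chr10:103276888-103277137, plus strand, GRCh38.p14, from RefSeq, written 5′ to 3′ with capitals for GC boxes and an E-box.
INA: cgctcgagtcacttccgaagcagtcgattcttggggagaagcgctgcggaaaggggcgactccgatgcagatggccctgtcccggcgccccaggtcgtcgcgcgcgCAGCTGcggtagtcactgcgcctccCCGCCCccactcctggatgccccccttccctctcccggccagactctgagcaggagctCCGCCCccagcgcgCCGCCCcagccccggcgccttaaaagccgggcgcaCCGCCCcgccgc
Its GC content was 72.8%. On both strands the GC box letters GGGCGG occurred 4 times, each time as CCGCCC on this strand, and 42.6% of the 35116 RefSeq windows of the same length hold that motif. The E-box letters CAGCTG occurred 1 time and are found in 14.0% of windows. The letters TATAAA, present in 10.7% of windows, did not occur in this one.

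Other intermediate filament genes had no common direction. Of 18 such genes listed, 13 were tested in RNA-seq, of which 2 were called higher and 1 lower in 4EHP-null against WT cells, with a median log2 fold change of -0.08. Of all genes tested in that contrast 6.47% were called higher and 6.63% lower. Peripherin, PRPH, the class III neuronal filament that can assemble with neurofilaments, had 0.947 and 0.648 CPM in 4EHP-null cells, against 1.19 and 0.834 CPM in WT cells, and did not pass the test (log2 fold change -0.31 ± 0.37, adjusted p = 0.641). NES, which encodes the progenitor filament nestin, had -0.13 ± 0.17 (adjusted p = 0.667), and vimentin, VIM, had -0.31 ± 0.14 (adjusted p = 0.167). SYNM, encoding synemin, fell by 0.80 ± 0.15 on the log2 scale (adjusted p = 0.00445), a call lost without the first 4EHP-null library (adjusted p = 0.0534). KRT8, the simple epithelial keratin, rose by 0.99 ± 0.11 (adjusted p = 0.000128). KRT8 and its partner KRT18 have many processed pseudogenes, so their counts are uncertain. The lamin gene LMNA had 0.42 ± 0.12 (adjusted p = 0.0439), lost without any 1 of the 4 libraries compared.

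In GIGYF1/2-null against WT cells 2 of these 13 genes were called higher and 3 lower, with a median of 0.07, where 5.20% of all genes tested were called higher and 6.75% lower. KRT8 rose by 1.26 ± 0.11 (adjusted p = 3.23e-05) and KRT18 by 0.53 ± 0.08 (adjusted p = 0.00137) on the log2 scale. VIM had -0.48 ± 0.14 (adjusted p = 0.0376), LMNA -0.59 ± 0.13 (adjusted p = 0.00937) and LMNB1 -0.43 ± 0.10 (adjusted p = 0.0178). The VIM, LMNA and LMNB1 calls were each lost without the first WT or the second GIGYF1/2-null library, and that of VIM also without the second WT library and with DESeq2. KRT8 was thus called higher in both null lines, whose contrasts share the WT libraries, while NEFL and NEFM were called higher in GIGYF1/2-null cells and lay lower in 4EHP-null cells. KRT7, KRT19 and BFSP2 had no read in any RNA-seq library.

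**Figure D5:**
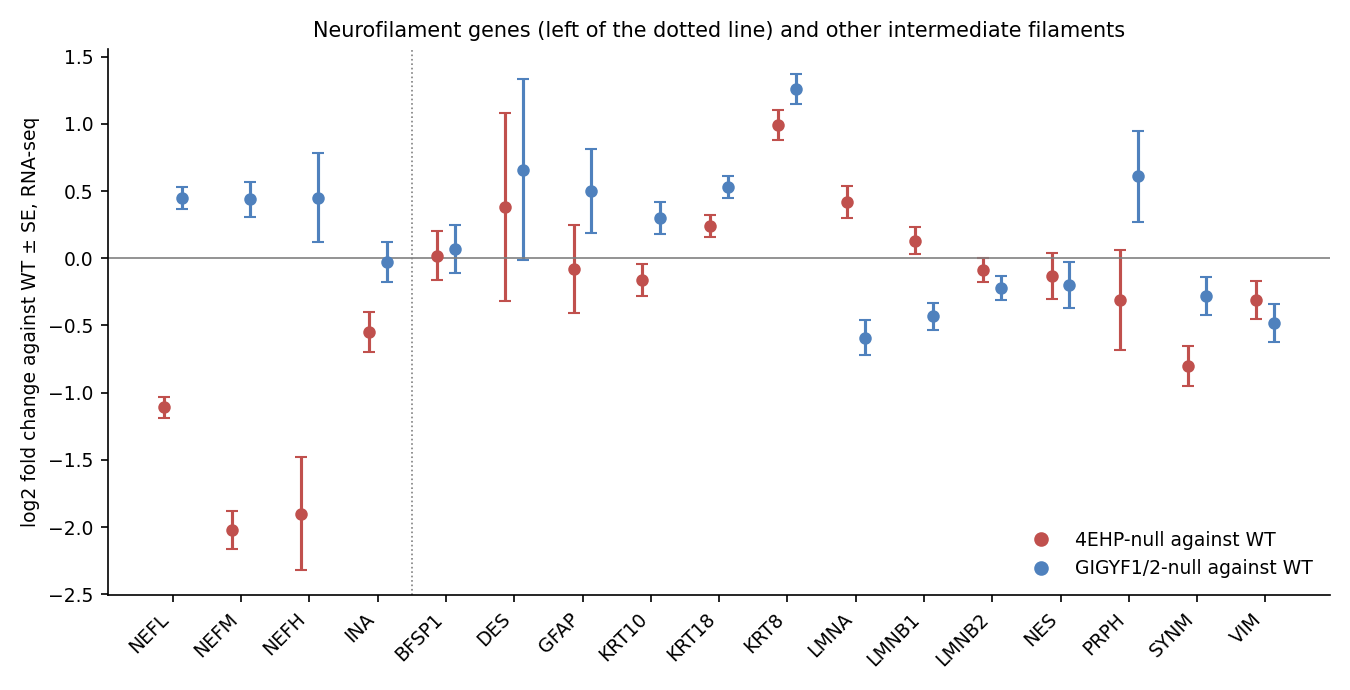
Log2 fold change of mRNA against WT with standard error (vertical axis) for the 4 neurofilament and internexin genes, left of the dotted line, and the 13 other intermediate filament genes tested, in 4EHP-null and GIGYF1/2-null cells. NEFM (-2.02), NEFH (-1.90) and NEFL (-1.11) have the lowest values in 4EHP-null cells, and KRT8 is high in both null lines (0.99 and 1.26).

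Genes of the wider neuronal cytoskeleton went both ways in mRNA. Among 25 tested neuronal microtubule and axon genes, 5 were called higher and 4 lower in 4EHP-null against WT mRNA, with a median log2 fold change of 0.15, beside 6.47% higher and 6.63% lower among all genes tested. CRMP1, a semaphorin signalling mediator, fell by 1.26 ± 0.13 (adjusted p = 8.38e-05) and NCAM1, a neural cell adhesion molecule, by 1.21 ± 0.11 (adjusted p = 3.17e-05). ENO2, the neuronal enolase, rose by 1.03 ± 0.15 (adjusted p = 0.000949), and TUBA1A, an alpha-tubulin of developing neurons, rose by 0.43 ± 0.08 (adjusted p = 0.00366). In GIGYF1/2-null against WT cells 3 were called higher and 4 lower, beside 5.20% and 6.75% of all genes tested. ENO2 was up by 0.87 ± 0.15 (adjusted p = 0.00239) and BASP1, a growth cone protein, by 0.98 ± 0.14 (adjusted p = 0.00093). Of those called lower, STMN3 had a log2 fold change of -0.59 and MAP1A of -0.54. The STMN3 call was lost in 1 of 14 other settings. In footprints 24 genes of this list were tested and 0 were called higher in either null line. In 4EHP-null against WT cells 3 were called lower, with a median of -0.24, beside 1.58% higher and 1.46% lower among all genes tested. In GIGYF1/2-null against WT cells 2 were called lower, with a median of -0.2, beside 2.09% of all genes tested called in either direction.

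Genes that modify, carry or control neurofilaments mostly did not pass the test. Of 14 tested kinases, phosphatases and isomerases of neurofilaments, 2 were called higher in 4EHP-null cells. MAPK8, the stress kinase JNK1 that can phosphorylate neurofilament tails, rose by 1.36 ± 0.10 in mRNA (adjusted p = 1.97e-06) and by 1.40 ± 0.21 in footprints (adjusted p = 0.00468), where 1.58% of all genes tested were called higher. CDK5, another neurofilament kinase, fell by 0.59 ± 0.12 in GIGYF1/2-null mRNA (adjusted p = 0.00548), a call lost without the second WT library (adjusted p = 0.081). Of 14 crosslinkers and transport motors, 3 were called higher in 4EHP-null cells, led by the axonal kinesin KIF1A with 1.09 ± 0.10 (adjusted p = 2.47e-05). In 4EHP-null against WT mRNA, 1 of 11 genes of filament turnover, 1 of 10 binding proteins of neurofilament mRNAs and 2 of 12 genes of the REST repressor complex were called higher. Of 13 neural lineage transcription factors 1 was called lower in that contrast. In GIGYF1/2-null against WT mRNA 2 of these 13 were called higher and 1 lower, beside 5.20% and 6.75% of all genes tested. In 4EHP-null against WT mRNA 6.47% of all genes tested were called higher and 6.63% lower. Counts this small are given without further reading.

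Marker genes of other cell types stood at low summed levels in RNA-seq. The 11 chromaffin and adrenal markers summed to 15.0 to 15.2 CPM in 4EHP-null cells, 20.7 to 21.5 CPM in GIGYF1/2-null cells and 15.2 to 18.0 CPM in WT cells. The 9 glial markers summed to 12.8 to 13.1 CPM in 4EHP-null cells, 16.9 to 17.4 CPM in GIGYF1/2-null cells and 12.8 to 15.1 CPM in WT cells, with SOX10 at 0 in all. Fibroblast markers summed to 13.3 to 15.8 CPM in 4EHP-null cells, 14.8 to 15.4 CPM in GIGYF1/2-null cells and 9.93 to 11.0 CPM in WT cells, with COL1A2 at 0 in all. Kidney lineage markers summed to 47.9 to 53.9 CPM in 4EHP-null cells, 66.2 to 68.9 CPM in GIGYF1/2-null cells and 59.5 to 61.2 CPM in WT cells. The 11 leukocyte markers summed to 5.37 to 5.78 CPM in 4EHP-null cells, 6.77 to 8.80 CPM in GIGYF1/2-null cells and 4.37 to 5.32 CPM in WT cells. The sums of kidney, chromaffin, glial and leukocyte markers were, like NEFL and NEFM, highest in GIGYF1/2-null cells, and their part in the neurofilament values was not tested.

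Genes with the most similar pattern were sought over the 12 libraries, as the Pearson correlation of log2 CPM after the mean of each assay was removed, among 347 genes whose mRNA averaged at least 2 on the log2 CPM scale and whose genotype means spanned at least 1. The libraries share depth and preparation within an assay. The genes compared had to differ between genotypes in mRNA, and the choice of members rested on low mRNA in 4EHP-null cells. High correlations with genes low in those cells were therefore built in, and the values only describe likeness. NEFL was most like CELF2 (0.986), an RNA-binding protein, NEFM (0.982) and GLA (0.981), a lysosomal galactosidase. NEFM was most like HOXB9 (0.986), a homeobox gene, NEFL (0.982) and EIF4E2 (0.981). EIF4E2 is the gene deleted in 4EHP-null cells and its mRNA was lower there, and a link to NEFM was not tested. INA was most like PGBD5 (0.942), a domesticated transposase gene, CNN2 (0.936), a calponin, and NEFM (0.934), while its correlation with NEFL was 0.861. CELF2 mRNA averaged 0.923 CPM in 4EHP-null cells, 12.8 CPM in GIGYF1/2-null cells and 6.33 CPM in WT cells. HOXB9 mRNA averaged 109 CPM in 4EHP-null cells, 222 CPM in GIGYF1/2-null cells and 199 CPM in WT cells.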

How the data were processed

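RNA-seq and Ribo-seq of 3 HEK293T genotypes were analysed, with 2 libraries per genotype and assay. The deposited tables hold raw read counts per gene, whole numbers that the authors had not normalized, and another column with gene model length in bases, per the file headers. The submitters' processing notes name hg19, TopHat2, Bowtie2 and edgeR. Not given in the sources used here are the counting tool, the annotation and the use of strand. The authors also deposited comparison tables with log2 fold changes, p-values and translation efficiency ratios, per the file headers.

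The fits used edgeR 4.0.16 with limma 3.58.1, and DESeq2 1.42.0 as an alternative, in R 4.3.3. After filterByExpr, 15637 genes were tested in RNA-seq, 14722 in Ribo-seq and 13257 in translation efficiency. Libraries were scaled by TMM within an assay, and CPM and RPKM use those scaled totals. Two-sided quasi-likelihood F-tests were fitted in edgeR over the 6 libraries of an assay, or all 12 for translation efficiency, with Benjamini-Hochberg adjustment over all genes tested and a call at an adjusted p under 0.05. The same steps, tested on simulated data for 4EHP-null against WT, recovered 98.5% of 2-fold and 82.4% of 1.5-fold changes in RNA-seq over 15452 genes. In Ribo-seq over 14511 genes these shares were 94% and 29.4%, and in translation efficiency over 13058 genes 76.1% and 11.8%. In each case 67 genes were given a 2-fold and 34 a 1.5-fold change. Only genes with many reads were given changes, and every gene of an assay had the same simulated spread. The shares therefore do not carry over to NEFH or to genes of wider spread. Intervals are 95% intervals of the fit. A total of 9 comparisons were made.

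The 4 genes, the gene lists and the tests were chosen with earlier results of these data known. Named genes were the 4 members, the other intermediate filaments, up to 2 genes up and 2 down per list and contrast by adjusted p among called genes, and the 3 genes most like each member. Some of these are not printed. Alternatives were DESeq2, upper-quartile and DESeq2-type scaling, other low-count filters, a replicate block, fits of 2 genotypes alone, and each library left out.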

Additional observations from a re-analysis of the deposited data

How the results depend on the processing

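Each library in turn was left out, and the scaling, filter, tool and libraries fitted were varied, 14 alternatives per result. Calls of NEFL and NEFM in Ribo-seq of 4EHP-null against WT cells, and of NEFL mRNA in GIGYF1/2-null cells, held in all of them. NEFM mRNA in GIGYF1/2-null cells ranged from 0.20 to 0.63 with a library left out and lost its call at 0.43 (adjusted p = 0.0519) when only GIGYF1/2-null and WT libraries were fitted. INA footprints ranged from -0.90 to -0.62 in 4EHP-null against WT cells, and from 0.47 to 0.91 in GIGYF1/2-null against 4EHP-null cells. Values near 0 changed sign. With a library left out, in GIGYF1/2-null against WT cells, INA ranged from -0.27 to 0.17 in mRNA and from -0.28 to 0.12 in footprints, NEFM footprints from -0.30 to 0.60, and the translation efficiency of NEFL from -0.31 to 0.01. With upper-quartile scaling INA had 0.01 in mRNA and 0.01 in translation efficiency. The mRNA difference of GIGYF1/2-null against 4EHP-null cells was 1.61 for NEFL with that scaling, 1.52 to 1.57 without a library, and 2.21 to 2.65 for NEFM. The cause of these shifts was not tested, beyond the fewer samples in fits that leave a library out. When an arm had 1 library, it was assumed to vary like the other groups.

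Counts of genes called depended more on the fit. With a library left out they ranged, for 4EHP-null against WT, GIGYF1/2-null against WT and GIGYF1/2-null against 4EHP-null in turn, over 810 to 2537, 783 to 1819 and 2238 to 3756 in RNA-seq, 118 to 751, 59 to 671 and 431 to 1659 in Ribo-seq, and 4 to 53, 1 to 5 and 11 to 46 in translation efficiency. Without a filter Ribo-seq counts were 1166, 1135 and 2405, beside 448, 307 and 1587, and translation efficiency of GIGYF1/2-null against WT gave 10, beside 6. DESeq2 gave 24, 10 and 37 genes in translation efficiency, beside 13, 6 and 24. Fits of 2 genotypes alone gave 769 and 174 in Ribo-seq of 4EHP-null and GIGYF1/2-null against WT, and 22 and 14 in translation efficiency of 4EHP-null against WT and GIGYF1/2-null against 4EHP-null.

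Same-numbered libraries share only a number in the labels. Correlations of their deviations were 0.0701 to 0.18 in RNA-seq and 0.149 to 0.314 in Ribo-seq, above 0.1 for every pair of genotypes in Ribo-seq and for 2 of 3 in RNA-seq. With 2 numbers per genotype this is a hint from the data and not from the design. A replicate block raised the counts to 3571 and 3224 genes in RNA-seq of 4EHP-null and GIGYF1/2-null against WT, to 1830, 1747 and 3291 in Ribo-seq, and to 88, 30 and 114 in translation efficiency. It changed no call of the members. Ribo-seq depth limits NEFH, and low read numbers its mRNA. Among alternatives for named genes and counts of other lists, 4199 kept direction and call, 212 lost a call, 5 gained one and 296 moved a count. The gains were all for VIM mRNA in 4EHP-null against WT cells, with the replicate block among them (adjusted p = 0.00283). NES mRNA in that contrast was 0.01 without the second 4EHP-null library.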

Other observations

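The first replicate lay above the second in all 3 genotypes for NEFM, NEFH and INA in RNA-seq and for NEFL, NEFM and INA in Ribo-seq. This held for 18.5% of the 15637 genes tested in RNA-seq and 19.1% of the 14722 tested in Ribo-seq. NEFM footprints showed it most among the members, with the first over the second replicate at 1.34 in 4EHP-null cells, 1.87 in GIGYF1/2-null cells and 1.5 in WT cells.

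KRT81, a hair keratin, had footprints of 9.61 and 8.04 CPM in 4EHP-null cells, 7.03 and 3.89 CPM in GIGYF1/2-null cells and 11.3 and 7.0 CPM in WT cells. Its mRNA had no read in the 4EHP-null and WT RNA-seq libraries. Its footprints did not pass the test in either null line against WT.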
